A study of Daphnia magna with 20 samples.

Results

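The 200 transcript targets whose levels varied least were picked from 20 RNA-seq libraries of whole Daphnia magna, a freshwater crustacean used in toxicity testing. The choice used the measured counts themselves. The estimated count of each target was divided by the library sum and multiplied by 1000000, which gives its CPM. Of 26646 targets, 5277 reached at least 20 CPM in each of the 20 libraries, and 4357 of these also had whole-number counts in all of them. These 4357 targets are called eligible here. The 200 with the smallest standard deviation (SD) of log2 CPM over the 20 libraries, 4.59% of the eligible targets, were kept as candidate reference transcripts.

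Exposed animals were kept for 48 h with lithium cobalt oxide (LCO), a nanomaterial of battery cathodes, at 10 mg/L or at 1 mg/L, or with dissolved ions at 66 µg/L lithium and 15 µg/L cobalt, both added as chlorides. Control animals were kept in moderately hard water without an addition. All groups were labelled wild type, were 5 days old at the start, and received alfalfa as food, so fed whole animals are the common ground of every value. Each group had 5 libraries made from pools of 10 animals, so differences between individual animals were averaged before sequencing. Whether the pools came from separate vessels is not stated.

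A reference transcript is one whose level is taken as fixed when the level of another is reported relative to it, as in quantitative PCR. Transcripts of basic cell functions, such as those for actin, tubulin, glycolytic enzymes, ribosomal proteins and translation factors, are the usual choices in animals. Their use rests on the assumption that the treatment leaves them unchanged, which has to be checked in each organism and exposure. In growing Daphnia, transcripts tied to moulting and egg production change over days in the whole animal, so a stable level there is not given by a housekeeping role alone. The files name targets by identifier without gene names, and 0 of 26646 identifiers were found in the RefSeq gene table used here. The usual reference genes were therefore not looked up, and the functions of the 200 are not given. For the same reason the labelled whole-animal source was not checked against marker genes.

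Total estimated counts ran from 20744445 to 44181066 per library. Replicate 1 at 10 mg/L carries a treatment tag that reads untreated, and was grouped by its title. Over the 16163 targets tested, 17 of 20 libraries had the mean of their own group, computed without them, as the closest group mean. Replicate 5 at 1 mg/L, ion replicate 5 and control replicate 1 were closer to another group. The difference between target length and the effective length estimated during counting, which follows the mean fragment length, was 146 to 159.9 bases at 10 mg/L, 145 to 164 at 1 mg/L, 145 to 155 with ions and 159 to 163 in control. Its part in the results below was not tested.

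The 200 targets had an SD of log2 CPM from 0.057 to 0.114, with a median of 0.101. The other 4157 eligible targets had a median of 0.262 and a highest value of 2.28. As a coefficient of variation of CPM, the 200 lay between 3.98% and 8.11%, with a median of 6.98%. Nothing separated the last targets inside the list from the first outside. KZS15779, the last one inside, had an SD of 0.1144, and KZS10380, the next in order, had an SD of 0.1147. These values made the list and are given as a description.

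**Figure D1:**
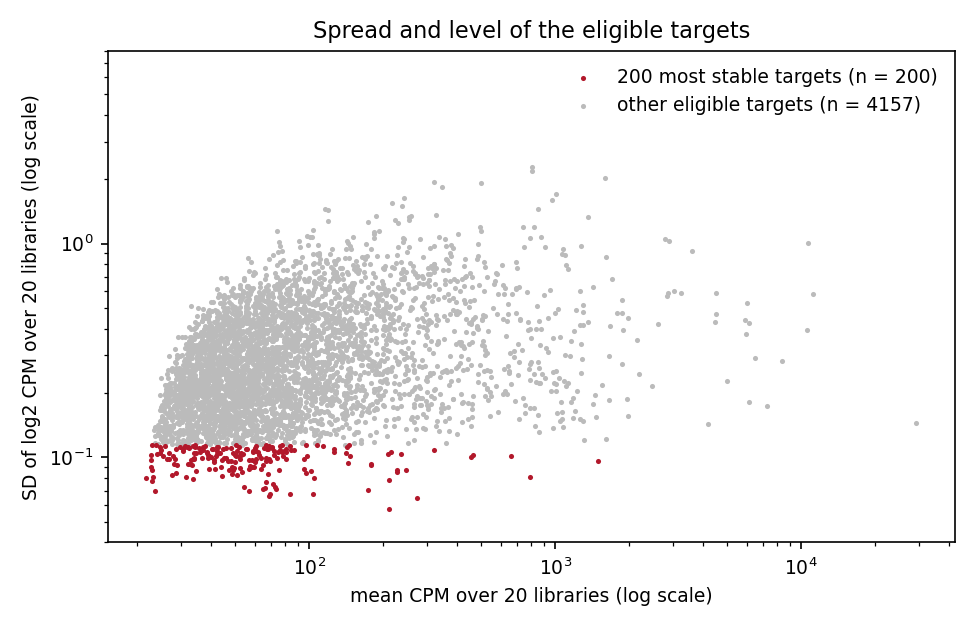
SD of log2 CPM over 20 libraries against mean CPM, both on log axes, for the 200 targets (red) and the other 4157 eligible targets (grey). The 200 form the lower edge of one continuous cloud, up to an SD of 0.114, and lie mostly below 100 CPM.

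The KZS21089 target had the smallest SD of all, 0.057. Its level was 224, 215, 214, 207 and 198 CPM at 10 mg/L, 219.6, 208, 205, 206 and 204 CPM at 1 mg/L, 204, 199, 214, 213 and 196 CPM with ions, and 217, 220.3, 205, 219 and 223 CPM in control. All 4 groups overlapped, and the highest library was 1.14 times the lowest. The ion libraries averaged 205 CPM ± 7.89 and the control libraries 217 ± 7.08 (SD, n = 5 each), the widest gap between its group means.

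KZS18731 was next, at 292, 267, 278, 279.5 and 266 CPM at 10 mg/L, 294, 273, 276, 266 and 255 CPM at 1 mg/L, 277, 282, 293, 281 and 256 CPM with ions, and 284, 260.2, 256, 281 and 282 CPM in control. Its group means spanned 0.026 on the log2 scale, and only 3.5% of its variance over libraries lay between groups. KZS16344 showed the same flat profile at a lower level. It had 63.2, 67.6, 70.8, 70.6 and 65.9 CPM at 10 mg/L, 66.0, 66.8, 67.2, 72.9 and 69.4 CPM at 1 mg/L, 72.4, 71.1, 67.3, 67.3 and 66.9 CPM with ions, and 67.2, 73.4, 61.6, 70.9 and 69.0 CPM in control. Its lowest and its highest value were both control libraries.

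KZS19286 was about as tight, with an SD of 0.067, but 43.2% of its variance lay between groups. It averaged 85.3 CPM ± 1.86 at 10 mg/L, 83.2 ± 1.67 at the lower LCO dose and 86.5 ± 4.81 with ions, against 80.0 ± 3.44 in control (SD, n = 5 each). KZS15431, with an SD of 0.068, averaged 70.5 CPM ± 1.59 at 10 mg/L, 67.5 ± 1.1 at 1 mg/L, 71.8 ± 3.12 with ions and 68.6 ± 4.82 in control. The lowest 10 mg/L library of KZS15431 lay just above its highest 1 mg/L library, while both groups overlapped control. The step in KZS19286 depended on the scale: under TMM, the scaling used for the tests below, its log2 fold change over control was 0.00 in both LCO groups and 0.06 (SE 0.05) with ions.

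**Figure D2:**
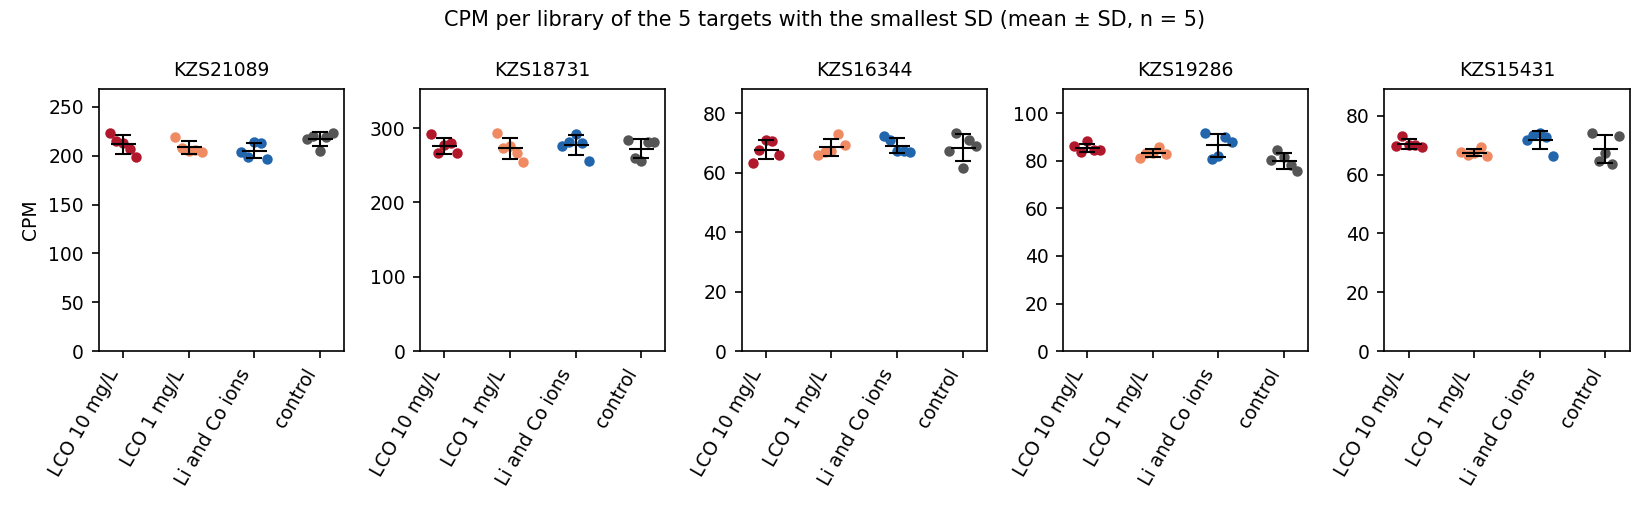
CPM in each library for the 5 targets with the smallest SD, by group, with axes from 0 and bars for mean ± SD (n = 5). Every exposed group overlaps control in every panel, the LCO groups of KZS15431 do not overlap each other, and the highest library is at most 1.22 times the lowest (KZS19286).

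Part of the remaining spread was the error of counting reads. For each target the SD that counting alone gives was computed from its counts in the 20 libraries, and for the 200 its median was 0.037 on the log2 scale. The observed SD was 2.6 times this value at the median, and 1.27 times at the lowest. Among the other eligible targets the median ratio was 8.51, with a median counting SD of 0.033. With counting SDs this alike, the contrast between the ratios mostly follows from the choice by SD. Only 25 of the 4357 eligible targets had an SD under 2 times the counting SD, and all 25 were on the list. The choice fixes this, since the largest counting SD of any eligible target was 0.05685. An SD under 2 times that value is small enough for the list by itself. For an abundant target the counting error was negligible. In KZS09393, the most abundant of the 200 at 1496 CPM, the observed SD of 0.097 was 14.1 times the counting SD. These figures treat reads as independent molecules and cover counting error only.

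The 200 were mostly of moderate abundance. Mean CPM ranged from 21.8 to 1496 with a median of 52.9, against a median of 68.4 in the other eligible targets. Per length, in the deposited TPM, the median was 34.7 in the 200 and 40.3 in the other eligible targets. By mean CPM, 91 of the 200 lay under 50, 79 from 50 up to 100, 15 from 100 up to 200 and 15 above that. When the eligible targets were divided at the quartiles of level, the share on the list was 6.61% in the lowest class (21.8 to 43.7 CPM), 5.79% and 3.67% in the next ones and 2.3% in the highest (124 CPM and above). Over the 4357 eligible targets, SD and level had a Spearman's rho of 0.37, a description over targets that share the same libraries. The floor of 20 CPM also takes out low targets that dip below it in any library, and its part in this relation was not tested. Of the 100 most abundant targets in control, 78 were eligible and 1, KZS09393, was on the list.

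KZS09393 had 1638, 1506, 1436, 1328 and 1383 CPM at 10 mg/L, 1574, 1516, 1442, 1414 and 1389 CPM at 1 mg/L, 1575, 1508, 1590, 1538 and 1374 CPM with ions, and 1761, 1471, 1459, 1493 and 1525 CPM in control. Replicate 1 was the highest library of its group in both LCO groups and in control, but the replicate number was not shown to mark a shared batch. The second most abundant of the 200 stood at 786 CPM. KZS07001, the least abundant, stayed within 20.3 to 25.2 CPM in all libraries and averaged 21.3 CPM ± 0.897 at 10 mg/L, 21.4 ± 0.506 at 1 mg/L, 22.2 ± 1.47 with ions and 22.3 ± 1.78 in control (SD, n = 5 each).

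Length, which the choice did not use, set the 200 little apart. Their median length was 2279 bases, with quartiles at 1543 and 3324, against 2416 bases with quartiles at 1493 and 3948 in the other eligible targets. Over all 26646 targets the median was 1314 bases. The shortest of the 200 was KZS11687 at 600 bases, while eligible targets went down to 200 bases, and 16 of the 200 were under 1000 bases. The longest was KZS09882 at 38364 bases, which is also the longest eligible target. Between the quartiles of length, 5.6% and 5.23% of the eligible targets were on the list, against 4.31% below the first quartile and 3.22% above the third. Over eligible targets, length and SD had a rho of 0.03, again a description. KZS11687 had 28.1, 30.7, 30.2, 27.7 and 29.1 CPM at 10 mg/L, 31.1, 27.0, 28.0, 30.6 and 29.1 CPM at 1 mg/L, 30.1, 29.4, 31.3, 30.3 and 24.4 CPM with ions, and 28.3, 30.5, 27.1, 31.2 and 27.6 CPM in control. Its group means spanned 0.012 on the log2 scale, the smallest span in the list.

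Libraries moved the 200 together to some extent. The median deviation of the 200 from their own means ran from -0.062 on the log2 scale in ion replicate 6 to 0.064 in replicate 5 at 10 mg/L. The ion libraries fell on both sides, at 0.058, 0.046 and 0.049 in replicates 1, 4 and 5 and at -0.06 and -0.062 in replicates 3 and 6. A shift common to all 200 held 11.8% of their variance over libraries, and the median SD was 0.093 once it was taken out. The ion libraries held the highest value for 81 of the 200 targets and the lowest for 72, against 43 and 62 in the control libraries. Within groups, the median SD of the 200 was 0.076 at 10 mg/L, 0.07 at 1 mg/L, 0.105 with ions and 0.079 in control. Eligible targets had medians of 0.138, 0.129, 0.205 and 0.156 in the same order. The ion group was thus the most variable for stable and for other targets alike. Together the 200 took 1.59% to 1.76% of the reads of a library, while the 100 most abundant control targets took 24.9% to 30.3%.

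**Figure D3:**
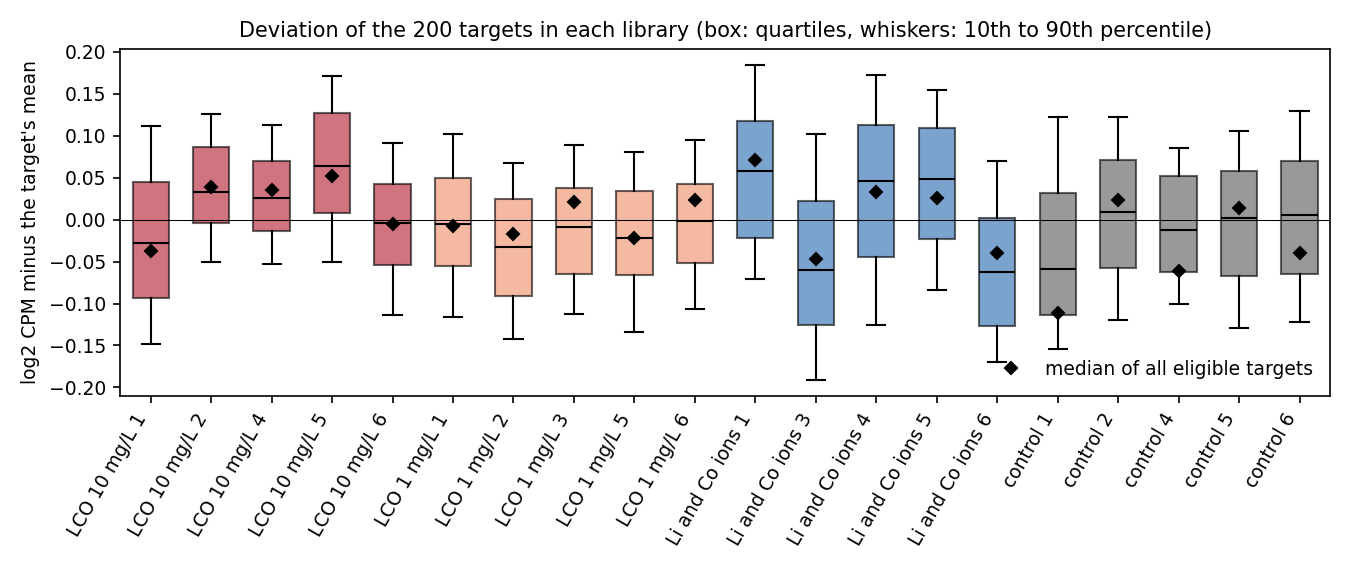
Deviation of log2 CPM from each target's mean over 20 libraries, for the 200 targets in each library. Boxes give quartiles, whiskers the 10th and 90th percentiles, and diamonds the median of all 4357 eligible targets. The medians of the 200 stay within -0.062 to 0.064, and the eligible targets reach -0.111 in control replicate 1.

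The difference between the highest and the lowest group mean, in log2 CPM, was 0.126 at the median of the 200 and 0.254 at the most. It was under 0.1 for 65 targets and under 0.2 for 185. The median in the other eligible targets was 0.504, and 118 of all 4357 eligible targets had a span under 0.1. Between-group differences held 25.3% of a target's variance at the median of the 200 and 59.3% in the other eligible targets. Part of such a share arises without any effect of exposure, because means of 5 libraries also differ by chance. The group with the highest mean was 10 mg/L for 72 targets, ions for 58, control for 45 and 1 mg/L for 25. The choice limits these spans directly, since a target with large steps between groups cannot have a small SD.

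The remaining group differences were fitted with edgeR's quasi-likelihood test over all 16163 tested targets. The list was made from the same libraries, so these counts describe the 200 and are no test of them. All 200 passed the filter on low counts. With libraries scaled by TMM, which assumes that most targets do not change, 22 of the 200 had an adjusted p under 0.05 for 10 mg/L against control, where 30.4% of all tested targets did. At 1 mg/L 5 of the 200 were called against control, where 9.33% of all tested targets were. With ions 22 of the 200 were called, where 50.1% of all tested targets were. Between exposed groups, 6 of the 200 were called for 10 mg/L against ions (25.1% of all tested targets) and 0 for 10 mg/L against 1 mg/L (6.28%). In that last comparison 11 had an unadjusted p under 0.05, the DESeq2 Wald test called 2 and limma on TPM called 3. In all, 160 of the 200 were called in none of the 5 comparisons, against 1009 of the 4357 eligible targets (23.2%). The pair of 1 mg/L and ions was not among the comparisons fitted. The comparisons with control share the control libraries. Without the 3 libraries closer to another group, the counts of the 200 called came to 25 at 10 mg/L, 3 at the lower LCO dose and 32 with ions against control, 13 for 10 mg/L against ions and 1 for 10 mg/L against 1 mg/L. The shares of all tested targets called in that setting are not given, so these counts cannot be set against them.

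The direction of these small differences depended on the scale. Under TMM the 22 targets called at 10 mg/L against control were all lower. Of all tested targets, 13.7% were called higher and 16.7% lower. Scaled by library totals, as in the choice of the list, 14 of the 200 were called higher and 5 lower, where 19.3% of all tested targets were higher and 12.8% lower. Of the 22 and the 19, 5 were called on both scales, and none in opposite directions. The median log2 fold change of the 200 was -0.06 under TMM and 0.04 under library totals, and 75 of the 200 changed sign.

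With ions, TMM gave 2 higher and 20 lower than control, where 25.4% of all tested targets were higher and 24.7% lower. Library totals gave 9 higher and 8 lower, where 27.6% were higher and 22.4% lower, and 10 of the 200 were called on both scales. At 1 mg/L, TMM gave 0 higher and 5 lower than control, where 5.64% were higher and 3.69% lower. Library totals gave 0 higher and 1 lower, where 6.99% were higher and 2.39% lower. At an unadjusted p under 0.05 the higher ones numbered 0 under TMM and 4 under library totals. Between 10 mg/L and ions, TMM gave 0 higher and 6 lower at 10 mg/L, where 11.3% were higher and 13.8% lower. Library totals gave 2 higher and 2 lower, where 14.1% were higher and 10.6% lower. The mean log2 TMM factor minus that of control was 0.092 at 10 mg/L, 0.058 at the lower LCO dose and 0.047 with ions. These offsets are of the size of the differences under study.

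**Figure D4:**
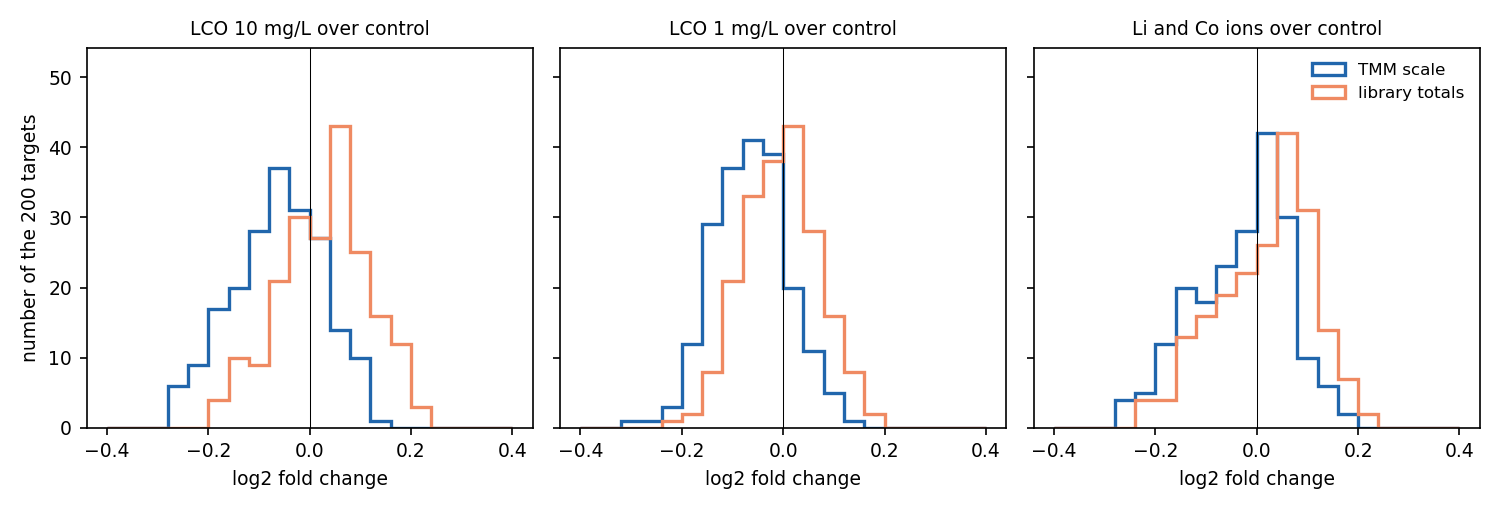
Number of the 200 targets by log2 fold change over control, for each exposed group, with libraries scaled by TMM (blue) and by library totals (orange). At 10 mg/L the median is -0.06 under TMM and 0.04 under library totals, and all values in the panels lie between -0.28 and 0.24.

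The choice by a small SD leaves little room for differences between group means, so the sizes below only describe the list. No fold change of the 200 passed 1.25-fold in any of the 5 comparisons under TMM. The range was -0.28 to 0.13 on the log2 scale for 10 mg/L over control, -0.28 to 0.13 for 1 mg/L and -0.28 to 0.19 for ions. The size of the log2 fold change had a median of 0.071, 0.069 and 0.066 in these comparisons, against 0.231, 0.152 and 0.387 in all eligible targets. The median standard error (SE) was 0.067 for the 200 and 0.108 for eligible targets. A 95% interval, taken as 1.96 SE on each side, stayed within 1.25-fold in all comparisons with control for 170 of the 200. Such intervals are too narrow for targets chosen by a small spread in these libraries.

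KZS20117 had the smallest p of the 200 for 10 mg/L over control. Its values were 218, 235, 226, 248 and 228 CPM at 10 mg/L and 278, 264, 257, 249 and 266 CPM in control. The groups did not overlap, by a margin of less than 1 CPM, and 16 of the 200 showed such separation on the CPM scale, against 21.5% of all tested targets. The log2 fold change was -0.28 (SE 0.06) under TMM and -0.19 under library totals. KZS20968 came next, at 152, 173, 176, 169.6 and 162 CPM at 10 mg/L and 174, 189.8, 185, 196 and 189.9 CPM in control, a log2 fold change of -0.26 (SE 0.06) under TMM and -0.17 under library totals. Here the lowest control library fell below the highest exposed library. With ions, KZS20117 averaged 249 CPM ± 10.9 and KZS20968 182 ± 9.61, between the 10 mg/L and control means.

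KZS19617 was the only one of the 200 called in all comparisons with control, and its direction held on both scales. It had 76.5, 70.9, 75.2, 74.4 and 72.7 CPM at 10 mg/L, 70.8, 68.0, 69.6, 69.7 and 72.7 CPM at 1 mg/L, 77.8, 74.6, 80.1, 68.9 and 66.9 CPM with ions, and 77.6, 79.5, 84.5, 83.5 and 85.8 CPM in control. The LCO libraries all lay below every control library, while 2 ion libraries lay inside the control range. Its log2 fold changes under TMM were -0.24 at 10 mg/L, -0.28 at the lower LCO dose and -0.20 with ions (SE 0.06 each). KZS12153 was also called lower at 1 mg/L, with a mean of 66.1 CPM ± 3.25 and a control mean of 75.2 ± 4.91 (SD, n = 5 each), with a log2 fold change of -0.24 (SE 0.07). Under library totals it was -0.19 and was not called, and the call was also lost when control replicate 2, 4 or 5 or replicate 1, 2 or 3 at 1 mg/L was left out (-0.25 to -0.21), with the replicate number as a block (-0.23), without a low-count filter (-0.22), when scaled by the 200 (-0.18) and with only the groups compared (-0.24).

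KZS16978 and KZS10884 were the targets called higher with ions under TMM. KZS16978 had 63.4, 67.6, 66.7, 66.6 and 65.0 CPM with ions and 55.3, 53.6, 56.0, 59.1 and 55.3 CPM in control, a log2 fold change of 0.19 (SE 0.05). Every ion library lay above every control library. At 10 mg/L it averaged 63.7 CPM ± 1.53, and was called higher under library totals (0.19) but not under TMM (0.10). KZS10884 averaged 89.2 CPM ± 5.25 with ions against 76.7 ± 2.86 in control (0.17, SE 0.06), and its lowest ion library fell just below the highest control library. The call for KZS10884 was lost with the replicate number as a block (0.16), without a low-count filter (0.13), without the 3 libraries closer to another group (0.15), without control replicate 2 (0.12) or 6 (0.14) and without ion replicate 3 or 4 (0.12 each). With only the groups compared in the fit, neither target was called (0.16 for KZS16978 and 0.14 for KZS10884).

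KZS20722 and KZS07873 were the lower targets with the smallest p for the ions. KZS20722 had 70.8, 65.9, 71.9, 74.5 and 67.8 CPM with ions and 85.8, 85.8, 79.7, 81.8 and 77.5 CPM in control, with no overlap. Its log2 fold change was -0.28 (SE 0.06) under TMM and -0.23 under library totals. KZS07873 averaged 32.0 CPM ± 2.37 with ions against 36.8 ± 2.12 in control, a log2 fold change of -0.25 (SE 0.07) under TMM and -0.20 under library totals. Both were also lower at 10 mg/L under TMM (-0.23 and -0.25), and neither was called there under library totals. KZS21286 had the smallest p for 10 mg/L against ions, with 51.9, 55.1, 61.8, 61.3 and 58.1 CPM at 10 mg/L and 61.5, 62.1, 69.1, 69.6 and 69.5 CPM with ions, a log2 fold change of -0.25 (SE 0.06). The ranges overlapped by less than 1 CPM, and control averaged 58.5 CPM ± 2.0. The call was lost without a low-count filter (-0.19) and with only the groups compared (-0.23).

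A measure that the choice did not use came from leaving a group out. The rule was applied to the 15 libraries outside an exposed group, and the new 200 were then looked up in that group. Without 10 mg/L, 26 of the new 200 (13.0%) were called against control, against 38.7% of the targets eligible in the same 15 libraries. The size of the log2 fold change had a median of 0.072, against 0.232. With the ions left out, 72 (36.0%) were called against 67.0%, with medians of 0.12 against 0.416. With 1 mg/L left out, 18 (9.0%) were called against 12.1%, with medians of 0.088 against 0.152. Control libraries served both in the choice and in the comparison, and the differences between these shares were not tested. Without the 3 libraries closer to another group, 31 of these targets were called at 10 mg/L, 22 at the lower LCO dose and 89 with ions. The share of eligible targets called in that setting is not given, so whether calls rose overall is not shown.

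Values moved furthest in the ion group, in the lists and in the eligible targets alike. A fold change over 1.25-fold was found in 17 of the 200 chosen without the ions, in 5 of those chosen without 10 mg/L and in 1 of those chosen without 1 mg/L. These are 8.5%, 2.5% and 0.5% of the lists, against 59.4%, 36.8% and 22.0% of the targets eligible in the same libraries. The list chosen without ions also ended at a smaller SD, 0.093, than the lists without 10 mg/L and without 1 mg/L, at 0.113 each. The largest log2 fold change in size was -0.52 with ions, -0.45 at 10 mg/L and 0.33 at 1 mg/L. Between the libraries of the group left out, the SD had a median of 0.139 with ions, 0.09 at 10 mg/L and 0.078 at 1 mg/L. In the eligible targets it was 0.215, 0.138 and 0.129. The list chosen without ions shared 113 targets with the list from all libraries, that without 10 mg/L 158 and that without 1 mg/L 143.

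The direction of the calls again moved with the scale. At 10 mg/L TMM gave 1 higher and 25 lower than control, where 14.0% of the targets eligible in the other libraries were higher and 24.7% lower, while library totals gave 22 higher and 8 lower, where 22.3% were higher and 17.6% lower. At 1 mg/L TMM gave 10 higher and 8 lower, where 5.92% were higher and 6.15% lower, while library totals gave 20 higher and 2 lower, where 8.02% were higher and 3.83% lower. With ions TMM gave 6 higher and 66 lower, where 30.2% were higher and 36.8% lower, while library totals gave 13 higher and 41 lower, where 33.1% were higher and 33.6% lower. As a share of the new 200, the 20 higher targets at 1 mg/L were thus not fewer than among the eligible ones.

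The list itself depended on how stability was measured. Of the 200, 141 (70.5%) were also chosen from TMM-scaled CPM, 141 from counts over DESeq2 size factors and 120 from the deposited TPM. TPM below 20 in some library removed 66 of the 200 from that choice beforehand. Ranking by the SD within groups, which ignores steps between groups, kept 95, and ranking by the median absolute deviation, which ignores single distant libraries, kept 107. The choice without the 3 libraries closer to another group kept 160. Leaving out 1 library at a time kept 170 to 192, and 149 of the 200 were in all 20 of these lists. A floor of 50 CPM kept 93, which are all of the 200 that reach it in every library. Targets with fractional counts, where reads are divided between similar sequences, numbered 920 above the floor, and 25 of them would have entered the list had they been admitted.

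**Figure D5:**
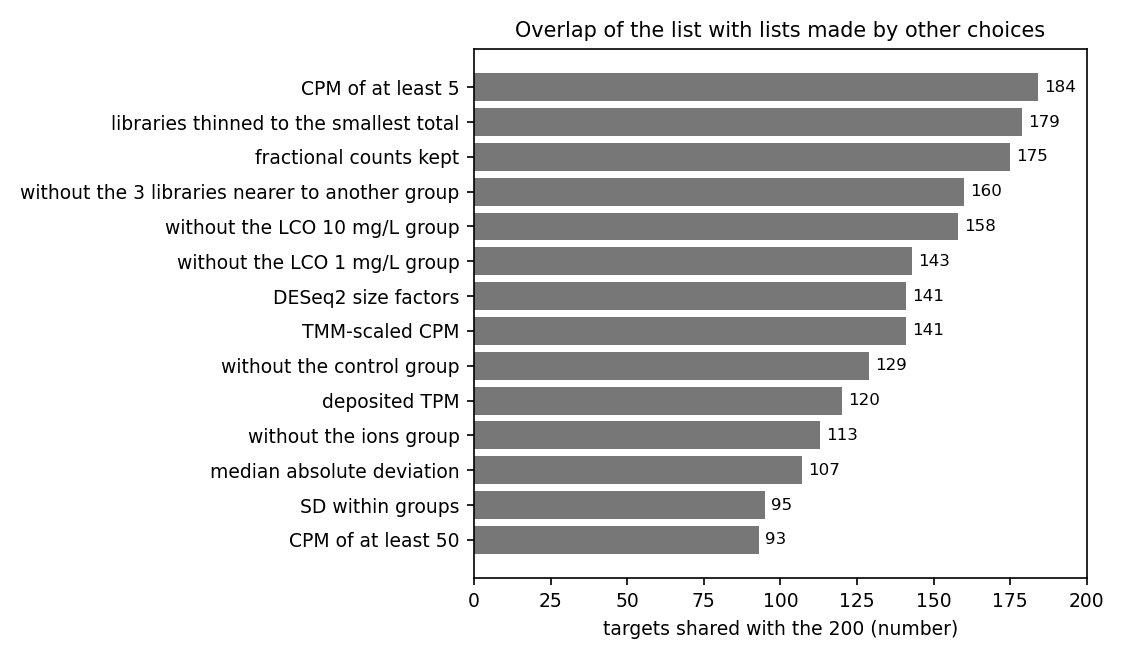
Number of the 200 targets that were also chosen when 1 setting of the rule was changed. The overlap runs from 93 with a floor of 50 CPM to 184 with a floor of 5 CPM.

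A core of 31 targets was chosen on all 4 scales, in every list that left out 1 library, by the SD within groups and by the median absolute deviation, and was called in no comparison under TMM, library totals or scaling by the 200. The targets shown first, KZS21089, KZS18731, KZS16344, KZS19286 and KZS15431, are all in it. The 31 had mean levels of 23.0 to 786 CPM with a median of 64.0, lengths of 663 to 3530 bases with a median of 1698, and SDs of 0.057 to 0.102. Their group means spanned up to 0.202 on the log2 scale, in KZS05664. Under library totals, its log2 fold change over control was -0.108 at 1 mg/L and 0.096 with ions. All but 1 ranked in the first 100. The list of 31 was made after the values were seen, from the same libraries, and is offered as a description only.

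Used as a scale, the 200 gave library factors that differed from those of TMM. The TMM factors were small themselves, from -0.113 in control replicate 1 to 0.073 in replicate 2 at 10 mg/L on the log2 scale. The 200 were chosen for a flat level under library totals, which by itself keeps their factors small. The mean log2 CPM of the 200 differed from the TMM factor by 0.077 at most, in replicate 3 at 1 mg/L, and on average by -0.023 at 10 mg/L, -0.023 at 1 mg/L, 0.006 with ions and 0.04 in control. With only the 5 most stable targets the largest difference was 0.134, in control replicate 1. Scaling by the 200 moved the balance of calls over all 16163 targets. Against control, it gave 2862 higher and 2344 lower at 10 mg/L, 32.2% of targets, where TMM gave 2210 and 2706. The lower LCO dose had 1240 higher and 409 lower, 10.2% of targets, where TMM gave 911 and 597. With ions it gave 4394 higher and 3788 lower, 50.6% of targets, where TMM gave 4112 and 3988. Which scale is nearer to the amount of RNA per animal was not measured.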

How the data were processed

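RNA-seq of pooled whole Daphnia magna was deposited as 1 table per library. Per the file headers, the authors deposited estimated counts per target, not normalized, together with TPM scaled by effective length, and target lengths. The header matches kallisto output. For program, version, annotation and build: not given in the sources used here. The 200 targets follow the rule in the opening, and members and lists were chosen with earlier results of these data known. Before fitting, the estimated counts were rounded, and they were fitted with edgeR 4.0.16 in R 4.3.3 (filterByExpr with a minimum count of 10 and a minimum total of 15, TMM, 1 fit of 20 libraries with group as the only term, two-sided tests, Benjamini-Hochberg adjustment over 16163 targets). The p-values measure the spread between pools, which may be partly technical. No 2 libraries were identical. Replicates differed beyond sampling noise, with a chi-square over its degrees of freedom of at least 21.6. Named targets are the 5 with the smallest SD, those on either side of rank 200, the extremes of level and length, and, per comparison with control, up to 2 called higher and 2 lower with the smallest p (1 each between exposed groups). The choice and the fit were tried on simulated data. For the choice, the planted stable targets were set well apart from the rest in spread. The real targets form a continuous range, so that run does not bear on which targets are listed. For the fit, every planted change was larger than any fold change of the 200. Its run does not bear on the detection of differences this small. Alternatives used DESeq2 1.42.0, limma 3.58.1 on log2(TPM + 1), other filters and scales, thinning to 20744424 counts and left-out libraries. Figures were drawn with matplotlib 3.10.9.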

Additional observations from a re-analysis of the deposited data

Results flagged for a closer look

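Among the named targets, 80 groups of 5 CPM values were checked for a library far from the others, and in 5 the gap to the nearest value was over 0.71 of the range. Over all 200 targets this held for 51 of 800 groups, and chance gives about 1 in 20. KZS15431 had its highest 10 mg/L value, 73.3 CPM, in replicate 2 (0.798 of the range). KZS10380, the first target outside the list, had its highest 10 mg/L value, 167 CPM, in replicate 5 (0.806). KZS09393 had its highest control value, 1761 CPM, in replicate 1 (0.783). KZS11687 had its lowest ion value, 24.4 CPM, in replicate 6 (0.73). KZS21286 had its highest control value, 62.0 CPM, in replicate 5 (0.769). In a fit of the difference itself, KZS20968 had a log2 fold change of -0.18 for 10 mg/L over ions. This target was chosen with these libraries, so the value is a description.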

How the results depend on the processing

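Of the 200 targets, the list made from the deposited TPM shared 120, a floor of 50 CPM 93, the median absolute deviation 107, the SD within groups 95, the choice without ions 113 and the choice without control 129. Leaving out 1 library shared 170 to 192. The largest difference from TMM was 0.077 with 200 targets and 0.134 with 5. Counts of called targets were small and moved with the method. At 10 mg/L against control, 22 became 11 without a low-count filter and 11 in limma. At 1 mg/L against control, 5 became 1 under library totals, without a filter and with only the groups compared, 2 when scaled by the 200, 3 without the 3 libraries nearer to another group, 12 in DESeq2 and 0 in limma (8 unadjusted). For ions against control, 22 became 10 with only the groups compared, 35 in DESeq2 and 14 in limma, where 10 were higher and 4 lower. Between 10 mg/L and ions, 6 became 1 without a filter, 13 without the 3 libraries, 0 with only the groups compared (5 unadjusted), 11 in DESeq2 and 10 in limma. Between 10 and 1 mg/L, 0 became 1 without the 3 libraries and with only the groups compared, 2 in DESeq2 and 3 in limma. In lists chosen without the exposed group, 26 at 10 mg/L became 14 and 18 at 1 mg/L became 11 without a filter. The causes were not tested. For most of these settings and those below, no share over all tested targets is given. The counts alone do not show whether calls changed overall.

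Leaving out 1 library gave 13 to 25 for 10 mg/L against control (13 without replicate 2 or 6 at 10 mg/L), 1 to 9 for 1 mg/L (1 without its replicate 1 or 3, 2 without its replicate 2, 3 without its replicate 6, 9 without its replicate 5, 2 without control replicate 1 or 6, 3 without control replicate 4 or 5), 18 to 42 for ions (36 without control replicate 5, 42 without ion replicate 5), 1 to 12 for 10 mg/L against ions and 0 to 1 for 10 mg/L against 1 mg/L (1 without replicate 5 at 1 mg/L). Between 10 mg/L and ions the count was 12 without ion replicate 5, 1 without ion replicate 4 or replicate 5 at 10 mg/L, 3 without ion replicate 3, and 2 without ion replicate 1 or replicate 2, 4 or 6 at 10 mg/L. In lists chosen without the exposed group it gave 16 to 29 at 10 mg/L (16 and 17 without its replicates 2 and 6), 5 to 27 at 1 mg/L and 57 to 96 with ions. At 1 mg/L that was 7, 5, 8 and 10 without its replicates 1, 2, 3 and 6, and 5, 9 and 7 without control replicates 4, 5 and 6.

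Same-numbered libraries of different groups showed no clear tendency to deviate together (r from -0.43 to 0.49 over 25 pairs, median -0.07, 9 over 0.1). Pairs with different numbers had r from -0.43 to 0.67 (125 pairs, median 0.01, 42 over 0.1). These values do not show whether the number marks a shared batch. With the replicate number as a block, 5 at 1 mg/L became 1, 6 for 10 mg/L against ions became 2, and 18 in the list chosen without 1 mg/L became 6. The added alternatives, scaling by the 200 and leaving out the 3 libraries, were chosen after the data were seen. None of the 9 called fold changes recomputed under the alternatives changed sign. Some named targets that were not called, such as KZS18731, changed sign between scales.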
